A study of Mus musculus with 6 samples.

Results

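The stefins and cystatins are a family of small proteins that block cysteine proteases, and 6 of their genes are described here, Stfa1, Stfa2, Stfa3, Cstb, Cst3 and Cst6. Each was taken from the array features that the platform names with that symbol alone, with the brightest feature kept where a gene had several, and all 6 were found among the 30142 genes measured. The genes were listed with their difference between the genotypes already known, so their own differences are given as a description without a test. Only a count of members called in the fit over all genes is added, and nothing is read from it.

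RNA came from the cancer stem cell fraction of squamous cell carcinomas of mouse skin. The sort kept cells without lineage markers that carried Epcam, α6 integrin and CD34. The 2 groups were wild-type mice (WT, 3 arrays) and mice without Sfrp1, Sfrp1-/-, a secreted Wnt antagonist (Sfrp1_KO, 3 arrays). All mice of both groups had received the mutagen DMBA on 3 days, at postnatal days 23, 25 and 27, and then the tumour promoter TPA 2 times a week for up to 30 to 40 weeks. Strain and sex are not stated in the labels, nor whether each array had its own animal; a p-value here therefore reflects the spread of 3 arrays per genotype, part of which may be technical. The deletion in Sfrp1-/- mice is described no further in the labels.

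Stefins (Stfa genes and Cstb) act inside the cell, while cystatins such as Cst3 and Cst6 carry a signal peptide and are secreted. Both kinds sit in the active site cleft of papain-like proteases, the lysosomal cysteine cathepsins, and some secreted cystatins also block legumain, an asparaginyl endopeptidase. In epidermis, stefin A is made by differentiating keratinocytes and is built into the cornified envelope, and Cst6 restrains the proteases that act on transglutaminases there. Mouse has several closely related stefin A genes side by side on chromosome 16 where human has 1.

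The values are log2 signals as deposited. They reach 19.93, above the 16 bits of a scanner, so some unstated step changed the scale. A unit of difference is therefore 1 deposited log2 unit, which need not be a doubling of RNA. Each array has 23 antigenomic probe sets that match no mouse gene; the highest of them, between 4.82 and 5.10, is called its background level here. Between 33.2% and 42.5% of the genes stood above it on each array. Levels of different genes rest on different probes and are not set against each other. Precision is limited by the number of arrays.

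The sequences before the gene starts are shown because the stefin A genes differ together between the genotypes and resemble each other there. Transcript and probe sequences were not compared; near-identical genes can share probe signal, and the values of the stefin A genes are uncertain to that extent. The 100 bases before the start of Stfa1, Stfa2 and Stfa3, of Csta3, a relative in the same cluster, and of Cst3 as a contrast are given 5′ to 3′ on the strand of the gene, from RefSeq, build GRCm38.p6. Capitals mark TTTAAAA in the stefin genes and GGCGGG in Cst3.
Stfa1, chr16:36277048-36277147, plus strand: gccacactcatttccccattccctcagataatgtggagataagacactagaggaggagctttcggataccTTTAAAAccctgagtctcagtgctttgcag
Stfa2, chr16:36408364-36408463, minus strand: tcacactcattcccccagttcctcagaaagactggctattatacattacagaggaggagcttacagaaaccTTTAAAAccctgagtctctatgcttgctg
Stfa3, chr16:36455393-36455492, minus strand: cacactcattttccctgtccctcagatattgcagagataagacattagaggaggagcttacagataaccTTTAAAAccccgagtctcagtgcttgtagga
Csta3, chr16:36210303-36210402, plus strand: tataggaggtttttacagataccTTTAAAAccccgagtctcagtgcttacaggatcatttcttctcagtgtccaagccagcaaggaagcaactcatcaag
Cst3, chr2:148875513-148875612, minus strand: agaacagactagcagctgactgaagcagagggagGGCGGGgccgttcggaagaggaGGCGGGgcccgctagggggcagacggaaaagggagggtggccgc

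Over the 250 bases before the start, aligned with free end gaps, Stfa1 and Stfa2 were identical at 82.9% of 246 aligned bases. Stfa1 and Stfa3 were identical at 86.9% of 245, and Stfa2 and Stfa3 at 83.3% of 245. Stfa1 was closest to Cstdc5, at 96.1% of 229 bases, and Stfa2 to Stfa2l1, at 92.3% of 246. Stfa3 was also closest to Cstdc5, at 87.6% of 226 bases. Cst3 and Stfa2 aligned over 3 bases only, and that match is left aside. So by percent identity Stfa1, Stfa2 and Stfa3 were each closest to a cluster gene outside the members. For Stfa3 the margin was small and the aligned lengths unequal. It had 198 identical bases with Cstdc5 and 213 with Stfa1, so which of them is nearer is not settled. In Stfa1, Stfa2 and Stfa3 the letters TTTAAAA began 30, 29 and 31 bases before the annotated start, and in Csta3 77 bases before it. On the gene strand and within the last 50 bases, 0.886% of 32851 promoter entries hold these letters, and 8.10% hold them or their reverse complement anywhere in the 250 bases. The Stfa genes share the 15 bases ATTATTGGCACAGAG without a mismatch further upstream, and 5 promoter entries in the table hold them, those of Stfa1, Stfa2, Stfa3, Cstdc5 and Stfa2l1. The Cst3 sequence has no TTTAAAA; it holds GGCGGG 3 times, which 32.5% of entries hold on either strand, and its 250 bases are 59.6% G and C against 48.4% to 49.6% in the Stfa genes. None of the 4 sequences of Stfa1, Stfa2, Stfa3 and Cst3 holds TGAGTCA or TATAAA on either strand, letters that 4.46% and 12.4% of entries hold. No motif searched contains another. These matches describe letters and show no binding. The Stfa sequences resemble each other over most of their length, so letters they share are not independent finds. The shares over all entries therefore do not measure how unusual the joint presence is. The table gave no entry used here for Cstb, Cst6 and Cstdc6.

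The 3 stefin A genes were detected in WT and stood at or near background in Sfrp1_KO, Cstb and Cst3 were bright in both genotypes, and Cst6 was under background everywhere. Stfa1, a cytosolic stefin of the A type, was at 10.80, 9.29 and 8.06 in WT replicates 1, 2 and 3, and at 4.76, 4.91 and 4.72 in the Sfrp1_KO replicates. The groups do not overlap, the lowest WT array lies 3.15 above the highest Sfrp1_KO array, and all 3 Sfrp1_KO arrays are under their background level. The means were 9.38 ± 1.37 (SD, n = 3) and 4.80 ± 0.10 (SD, n = 3), a difference of at least 4.31, counted from the background level, and of -4.59 as measured. Here and below, "at least" covers only the unknown level under background. It takes the mean of the detected genotype as given and makes no allowance for the spread between arrays.

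Stfa2, its relative, was at 7.31, 4.98 and 7.29 in WT and at 4.59, 4.44 and 4.78 in Sfrp1_KO. WT replicate 2 stands apart: it lies at its own background level of 4.98, only 0.19 above the highest Sfrp1_KO array, while the other WT arrays are clearly above background. The means were 6.52 ± 1.34 and 4.60 ± 0.17 (SD, n = 3), at least 1.46 apart and -1.92 as measured. Without WT replicate 2 the measured difference was -2.69.

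Stfa3 had the widest spread of the members, with 14.95, 8.96 and 10.10 in WT and 4.91, 4.68 and 6.04 in Sfrp1_KO. WT replicate 1 lies 4.86 above the next WT array, and Sfrp1_KO replicate 3 is the only knockout array above its background level. The groups are still 2.92 apart. The means were 11.34 ± 3.18 and 5.21 ± 0.73 (SD, n = 3), a difference of -6.13 as measured, and of -4.32 without WT replicate 1. As 2 of the Sfrp1_KO arrays are under background, that mean rests partly on values with no level. A second feature that the platform labels Stfa3 carries the gene identifier of Cstdc5, is dimmer, and is treated here as Cstdc5.

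Cstb, stefin B, an inhibitor found in the cytosol and nucleus of most cells, whose loss causes a progressive myoclonus epilepsy in humans, was at 14.01, 14.06 and 13.49 in WT and at 13.58, 13.09 and 12.06 in Sfrp1_KO. The groups overlap, since Sfrp1_KO replicate 1 lies above WT replicate 3, and Sfrp1_KO replicate 3 is the lowest array. The means were 13.85 ± 0.32 and 12.91 ± 0.78 (SD, n = 3), a difference of -0.94, or -0.52 without Sfrp1_KO replicate 3. Cstb thus stayed far above background on every array, unlike the 3 stefin A genes.

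Cst3, cystatin C, a secreted inhibitor made in most tissues and used in serum as a measure of kidney function, pointed the other way. It was at 12.94, 13.61 and 13.94 in WT and at 14.40, 13.99 and 14.04 in Sfrp1_KO. The groups are separated by 0.05 only, between WT replicate 3 and Sfrp1_KO replicate 2. The means were 13.49 ± 0.51 and 14.15 ± 0.22 (SD, n = 3), a difference of 0.65, or 0.37 without WT replicate 1.

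Cst6, cystatin E/M, the secreted inhibitor of legumain and cathepsin L in skin, was at 4.13, 4.09 and 4.43 in WT and at 4.45, 4.26 and 4.16 in Sfrp1_KO. All 6 arrays are under background and the groups overlap, so the arrays give no level for it and no difference is drawn.

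The limma fit over all genes also covers the members. In it, 1 of the 6 was called lower in Sfrp1_KO at adjusted p under 0.05, where 1.45% of all genes were. None was called higher, where 1.83% of all genes were. Arrays of the genotypes did not overlap for 3 members that were lower, where 10.8% of all genes did so, and for 1 that was higher, Cst3, where 9.10% did. The members were chosen with this comparison known, and nothing is read from these counts. In sorted bulk samples, fewer cells that express a gene and less of its RNA per cell cannot be told apart.

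**Figure D1:**
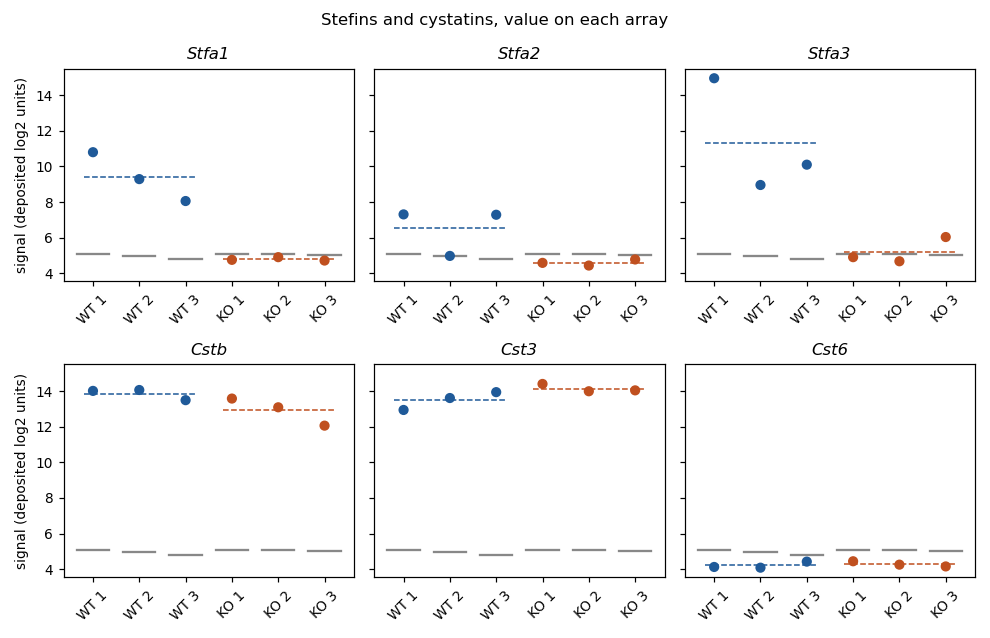
Value of each gene on each of the 6 arrays, in deposited log2 units; points are single arrays (blue WT, orange Sfrp1_KO, shown as KO), dashed lines the group means and grey bars each array's background level. Stfa1, Stfa2 and Stfa3 sit above background in WT, with WT replicate 2 of Stfa2 at 4.98 on its background, Cstb and Cst3 are bright on all arrays and Cst6 is under background on all.

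The stefin A genes lie in a cluster on chromosome 16, and 10 of its genes had a feature of their own: in order Stfa2l1, Cstdc4, Csta3, Csta2, Stfa1, Cstdc3, Cstdc6, Cstdc5, Stfa2 and Stfa3. A further feature there carries 2 symbols and was left out. Of the 7 that are not members, 4 fell in Sfrp1_KO (limma over all genes) against 1.45% of all genes, none rose (1.83%), and 3 did not pass. Their median difference was -1.22, against -0.01 over all genes. The list was drawn up with the change of Stfa1 known, and near-identical genes can share probe signal, so these genes are not independent of the members.

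Cstdc6, a stefin A relative, was at 9.59, 8.48 and 7.03 in WT and at 4.66, 4.58 and 3.86 in Sfrp1_KO. All knockout arrays are under background and the groups are 2.37 apart, so it fell by at least 3.30 (limma adjusted p = 0.0249). Csta3 was at 6.68, 6.75 and 7.31 in WT and at 4.47, 4.45 and 4.78 in Sfrp1_KO, and fell by at least 1.85 (SE 0.19 of the measured -2.35, limma adjusted p = 0.00378). Of the cluster genes outside the members, Csta3 had the smallest p and alone kept its call whichever single array was left out (limma adjusted p 0.00487 to 0.0259). Cstdc5, whose upstream sequence is the closest to that of Stfa1, was at 6.66, 6.65 and 5.81 in WT and at 4.67, 4.36 and 4.81 in Sfrp1_KO, and fell by at least 1.30 (limma adjusted p = 0.0207).

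Csta2 also passed (-0.59, SE 0.11, limma adjusted p = 0.0459), though all 6 of its arrays are under background, so no size is read from it. Its sequence before the start has no TTTAAAA. These letters were found 29 bases before the start of Cstdc4 and 55 before that of 1 Cstdc3 entry, genes not detected on any array. They were also found 9 and 33 bases before the starts of Cstdc5 and Stfa2l1, which were detected in WT. Stfa2l1, at 5.99, 5.25 and 6.30 in WT and at 4.54, 4.66 and 4.66 in Sfrp1_KO, did not pass (difference -1.22, SE 0.25, limma adjusted p = 0.0640). It did without WT replicate 2 (-1.52, limma adjusted p = 0.00989), with dim features left out (limma adjusted p = 0.0452), with array weights (0.0425) and with trend and robust eBayes options (0.0410). Cstdc3 and Cstdc4 were under background on all arrays. Csta2 was not called without any 1 of the 6 arrays (limma adjusted p 0.0593 to 0.185), Cstdc5 without WT replicate 1 or 2 or any 1 Sfrp1_KO array (limma adjusted p up to 0.0967), and Cstdc6 without WT replicate 2 or any 1 Sfrp1_KO array (limma adjusted p up to 0.106).

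**Figure D2:**
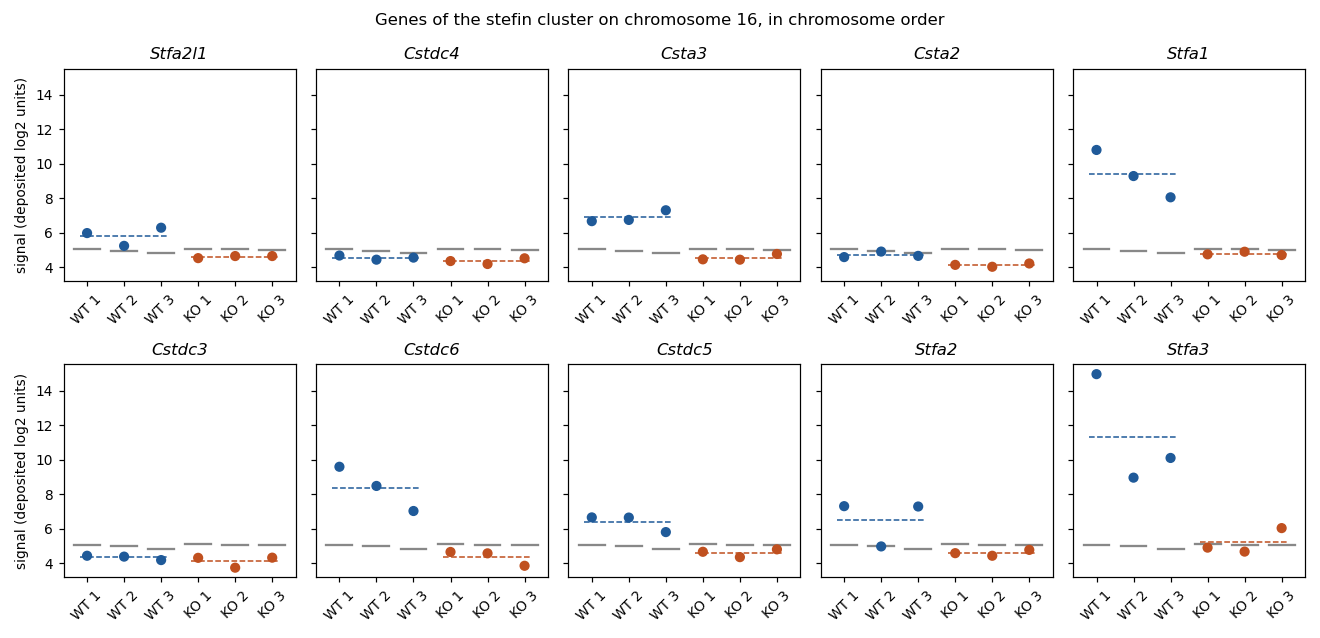
Value of the 10 cluster genes on each array, in chromosome order and in deposited log2 units, drawn as in the plot of the members. None of the 10 has all 3 Sfrp1_KO arrays above background, and 7 have all 3 WT arrays above it, counting Stfa2 with WT replicate 2 at its background level of 4.98.

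The genes next to the cluster on the chromosome were read as well. Of the 20 nearest measured protein-coding genes, 10 on each side, chosen by position after the cluster had been seen, 1 fell, where 1.45% of all genes fell, and none rose, where 1.83% did; their median difference was 0.01, and nothing is read from so few calls. The gene that fell was Fam162a, which encodes a mitochondrial protein (10.76 ± 0.78 to 7.54 ± 0.22, SD, n = 3; -3.22, SE 0.38, limma adjusted p = 0.0104, and 0.0608 without Sfrp1_KO replicate 2). At an unadjusted p under 0.05, 2 flanking genes were higher and 2 lower. Over all 30142 genes, 2061 were higher and 2272 lower at that limit. These totals also belong beside the counts at that limit given for the lists below.

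The order of the WT arrays differed from gene to gene within the cluster. Stfa1 and Cstdc6 were highest in WT replicate 1 and lowest in replicate 3, with deviations from the WT mean of 1.42, -0.09 and -1.32 for Stfa1 and of 1.22, 0.11 and -1.33 for Cstdc6. Cstdc5 shared the low WT replicate 3 (-0.57), while its other WT arrays differed by 0.01. Stfa2, Stfa3 and Stfa2l1 were instead lowest in WT replicate 2, by -1.55, -2.38 and -0.59 from their WT means. Csta3 had neither pattern and was highest in WT replicate 3 (-0.23, -0.16 and 0.40). The cluster genes detected in WT therefore did not share 1 order of the arrays. These are single arrays, and no test was made of their order.

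The genes most like each member were found by the root mean square distance between profiles over the 6 arrays, each gene centred on its own mean, for the 4 members whose values span at least 2 log2 units. They were picked from all genes for this likeness, so highs and lows shared with a member follow from the choice. Nearest to Stfa1 were Tns4, a focal adhesion tensin (distance 0.294), Cstdc6 (0.389) and the α3 integrin gene Itga3 (0.460). Stfa2 was nearest to Krt10 (0.221), the fatty acid elongation gene Hacd2 (0.328) and Krt1 (0.356); Krt1 and Krt10 encode the keratin pair of suprabasal epidermis. Krt10 was at 7.88, 5.92 and 7.63 in WT and at 5.15, 4.90 and 5.03 in Sfrp1_KO, so WT replicate 2 is low there as in Stfa2. Stfa3 had no close neighbour, the nearest being the transmembrane protein gene Slitrk6 (1.018), Serpinb2, a serpin of the plasminogen activator system (1.218), and the cornified envelope gene Sprr2b (1.228). Each of these has its highest value in WT replicate 1, at 12.83, 11.47 and 12.34. Cstb was nearest to the predicted gene Gm11185 (0.207), to Actn4, which cross-links actin (0.227), and to Gm14470 (0.231), all with their lowest value in Sfrp1_KO replicate 3.

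**Figure D3:**
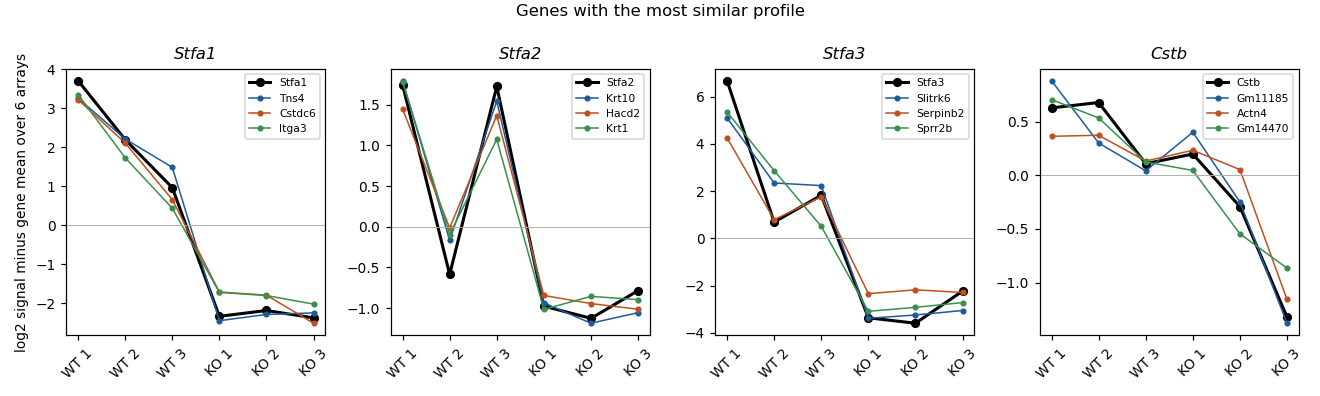
Profiles of Stfa1, Stfa2, Stfa3 and Cstb (black) and the 3 nearest genes of each over the 6 arrays, as log2 signal minus the mean of the gene; lines only join the values of a gene. Stfa2 and Krt10 dip together in WT replicate 2, at 4.98 and 5.92, and the profiles near Stfa3 peak in WT replicate 1. The genes were picked for such likeness on these arrays.

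Keratinocyte markers moved with the stefin A genes. The 10 genes include the basal keratin genes Krt5 and Krt14 and Trp63, the transcription factor of basal epidermis. Of the 10, 7 fell by limma, against 1.45% of all genes, and none rose, against 1.83%. The mean level of the list was 9.18 to 9.98 on the WT arrays and 5.30 to 5.40 on the Sfrp1_KO arrays. Epcam, a marker of the sort, was at 4.89 to 5.22 in Sfrp1_KO, around background. The part of the keratinocyte markers in the stefin values was not tested.

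Stefin A genes are also made by neutrophils. Of 12 neutrophil markers none passed in either direction by limma (at an unadjusted p under 0.05, 5 were lower and 0 higher). At that limit 2272 of all 30142 genes were lower and 2061 higher. The mean level of the list was 4.61 to 4.86 in WT and 4.09 to 4.45 in Sfrp1_KO. Among them 8 were under background on all 6 arrays, the defining genes Ly6g, Ngp, Elane and Mpo included. S100a8, S100a9 and Ltf were above background on all 3 WT arrays. S100a8 was at 7.08, 5.46 and 5.50 in WT and at 4.49, 4.20 and 4.59 in Sfrp1_KO (limma adjusted p = 0.140), and passed without WT replicate 1 (-1.05, limma adjusted p = 0.0268). The list means of the genotypes do not overlap, but each lies under the background level of its array. Their separation thus rests partly on values with no level. The part of these markers in the stefin values was not tested.

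Among the proteases that stefins and cystatins inhibit, the called genes were higher in the knockout. Of 11 cysteine cathepsins and legumain, 2 rose in Sfrp1_KO against 1.83% of all genes, none fell against 1.45%, and 9 did not pass. At an unadjusted p under 0.05, 4 were higher and 1 lower, where 2061 and 2272 of all 30142 genes were. The median difference was 0.07, against -0.01 over all genes. Ctsl, cathepsin L, an endopeptidase of the lysosome that also acts in epidermis and hair follicle, was at 8.76, 7.86 and 6.58 in WT and at 10.38, 11.18 and 11.16 in Sfrp1_KO. The groups are 1.63 apart, and the rise was 3.18 (SE 0.54, 95% interval 1.87 to 4.49, limma adjusted p = 0.0341). Ctsz, cathepsin Z, a carboxypeptidase, was at 5.72, 5.57 and 5.43 in WT and at 6.98, 6.61 and 6.65 in Sfrp1_KO, and rose by 1.17 (SE 0.13, limma adjusted p = 0.00973). Ctsz kept its call whichever single array was left out (limma adjusted p 0.020 to 0.040), whereas Ctsl was not called without WT replicate 2 (0.0871) or without Sfrp1_KO replicate 1, 2 or 3 (0.0837, 0.148 and 0.108).

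Ctsc, cathepsin C, a dipeptidyl peptidase that activates granule serine proteases, had its values on the side of the stefins, at 7.96, 9.59 and 6.77 in WT and at 5.93, 5.56 and 5.39 in Sfrp1_KO. Its groups do not overlap, but it did not pass (-2.48, SE 0.66, limma adjusted p = 0.128), and passed without WT replicate 3 (-3.15, limma adjusted p = 0.0485). Ctsb, cathepsin B, was at 10.20 ± 0.33 and 10.97 ± 0.66 (SD, n = 3; 95% interval of the difference -0.04 to 1.59, limma adjusted p = 0.378). Ctsh, an aminopeptidase, was at 8.59 ± 0.73 and 7.63 ± 0.86 (95% interval -2.20 to 0.28, limma adjusted p = 0.502), with overlapping groups. Lgmn, legumain, the target of Cst6, was at 7.06 ± 0.84 and 8.26 ± 0.47 (95% interval 0.14 to 2.27, limma adjusted p = 0.278). Ctss, cathepsin S of antigen-presenting cells, was under background in WT and above it on 2 of 3 Sfrp1_KO arrays. It did not pass (limma adjusted p = 0.145), and no size is read, as Sfrp1_KO replicate 3 is under background too. Ctss passed without Sfrp1_KO replicate 3 (limma adjusted p = 0.0279). Ctsf, Ctsk, Ctso and Ctsw were under background on all 6 arrays.

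Macrophage and leukocyte markers, which accompany Ctss in tissue, had list means of 4.46 to 4.56 in WT and 4.74 to 5.39 in Sfrp1_KO. The means of the WT arrays and of Sfrp1_KO replicate 3 lie under the background level of their arrays. None of 12 passed by limma, and 7 were higher and 0 lower at an unadjusted p under 0.05. Of all 30142 genes, 2061 were higher and 2272 lower at that limit. Among the 12, 5 were under background on all arrays, Ptprc, the leukocyte antigen CD45, included. The sort was against lineage markers. Lyz2, a macrophage lysozyme, was at 5.11, 4.69 and 5.02 in WT and at 7.94, 6.84 and 5.96 in Sfrp1_KO (1.98, SE 0.47, limma adjusted p = 0.0941). C1qb, a complement subunit, was under background in WT and at 5.89, 5.79 and 4.57 in Sfrp1_KO (limma adjusted p = 0.125). Its Sfrp1_KO replicate 3 is under background too, so no size is read from it. Without Sfrp1_KO replicate 3 Lyz2 and C1qb both passed (limma adjusted p = 0.0352 and 0.00436).

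Of 8 fibroblast markers 2 rose, against 1.83% of all genes, 1 fell, against 1.45%, and 5 did not pass. The median difference was 0.82. The mean level of the list was 5.63, 5.52 and 6.67 in WT replicates 1, 2 and 3, and 6.50 to 7.19 on the Sfrp1_KO arrays. The genotypes overlap through WT replicate 3 alone. Pdgfrb, a PDGF receptor, was at 5.11, 4.80 and 5.25 in WT and at 8.91, 9.47 and 7.93 in Sfrp1_KO, and rose by 3.72 (SE 0.38, limma adjusted p = 0.00696). Thy1 rose by 0.89 (SE 0.14, limma adjusted p = 0.0237), a call that held only without Sfrp1_KO replicate 3 when single arrays were left out (limma adjusted p up to 0.10 otherwise). Fbln1, a fibulin, fell by at least 0.78 (limma adjusted p = 0.00394). The part of macrophage, leukocyte and fibroblast markers in the values of the cathepsins, Scpep1 and Lxn was not tested.

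**Figure D4:**
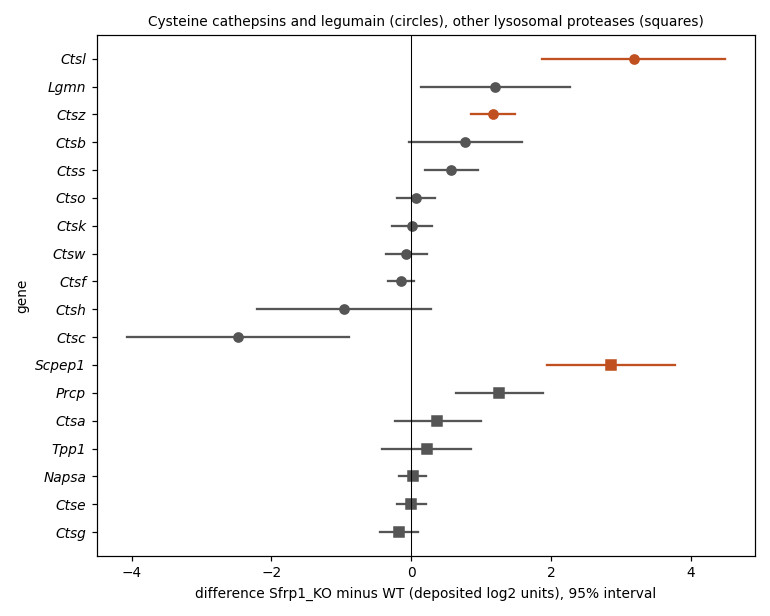
Difference (Sfrp1_KO minus WT, deposited log2 units) and its 95% interval from limma for 11 cysteine cathepsins and legumain (circles) and 7 other lysosomal proteases (squares); orange marks genes with adjusted p under 0.05. Ctsl, Ctsz and Scpep1 are the orange genes, all to the right of 0, and Ctsc has the lowest difference, at -2.48.

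Lysosomal proteases of other classes, which stefins do not inhibit, were set beside these. Of 7 measured, 1 rose, against 1.83% of all genes, 0 fell, against 1.45%, and 6 did not pass. At an unadjusted p under 0.05, 2 were higher and 0 lower, and the median difference was 0.22. The gene that rose was Scpep1, a serine carboxypeptidase (6.02 ± 0.48 to 8.87 ± 0.67, SD, n = 3; 2.86, SE 0.38, limma adjusted p = 0.0160). It was not called without WT replicate 3 (0.0570) or Sfrp1_KO replicate 1 or 2 (0.0665 and 0.0764). Of 12 genes that sort enzymes to lysosomes or drive lysosome formation, 0 passed by limma (at an unadjusted p under 0.05, 2 higher and 0 lower). The smallest p values there were those of Igf2r, a mannose 6-phosphate receptor (0.72, SE 0.15, limma adjusted p = 0.0684), and Mitf, a transcription factor of lysosomal genes (0.50, SE 0.17, limma adjusted p = 0.221). Igf2r passed without Sfrp1_KO replicate 3 (0.85, limma adjusted p = 0.0463).

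Members of the wider cystatin superfamily outside the cluster were mostly under background, 11 of 15 on all 6 arrays, among them Cst7, an inhibitor of immune cells. Of the 15, 2 rose by limma, against 1.83% of all genes, and 0 fell, against 1.45%. At an unadjusted p under 0.05, 2 were higher and 0 lower, and the median difference was 0.01. Lxn, latexin, a carboxypeptidase inhibitor with a cystatin-like fold, was at 8.13, 7.24 and 7.78 in WT and at 10.30, 10.67 and 10.51 in Sfrp1_KO. It rose by 2.78 (SE 0.23, limma adjusted p = 0.00391), with groups 2.17 apart. Fetub, fetuin B, a protease inhibitor of blood plasma, was under background in WT and at 5.50, 5.65 and 5.46 in Sfrp1_KO, a rise of at least 0.58 (limma adjusted p = 0.00205). Both passed without any 1 array (limma adjusted p up to 0.0259 and 0.0147).

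Cst6 acts on a route of epidermal differentiation that runs through transglutaminases, envelope proteins and envelope processing. Of 10 genes of this route 1 fell by limma, against 1.45% of all genes, 0 rose and 9 did not pass. At an unadjusted p under 0.05, 5 were lower and 0 higher, where 2272 and 2061 of all 30142 genes were. Asprv1, the protease that trims filaggrin, was called lower (limma adjusted p = 0.00859), with means of 5.01 ± 0.24 and 3.77 ± 0.09 (SD, n = 3). It was above background on only 2 of 3 WT arrays and on 0 of 3 Sfrp1_KO arrays, so no size is read from it. The count was 4 without WT replicate 1, 2 without WT replicate 3 and 0 without Sfrp1_KO replicate 2. The list had a median difference of -0.47.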

How the data were processed

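The log2 signals of 6 Affymetrix MTA 1.0 arrays were used as deposited. The submitters' processing notes name RMA and Affymetrix Expression Console. Versions, summarisation level, build: not given in the sources used here. Of 72688 features, 30604 have 1 platform symbol. Symbols were updated by gene identifier (827 changed) through a RefSeq table of GRCm38.p6, used only for names and gene order, and the brightest feature of each of 355 genes with several was kept. Groups and replicate numbers come from the sample titles. The test between genotypes was that of limma 3.58.1, run in R 4.3.3 (lmFit, eBayes, two-sided, Benjamini-Hochberg over 30142 genes, called under 0.05, no filter). Differences are Sfrp1_KO minus WT. "At least" is the mean of the detected genotype minus the mean background level of the other, where that one is at or under background on all arrays. It is not a confidence limit, since the spread between arrays does not enter it.

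The members and gene lists were chosen with earlier results of these data known. The genes named are the members, the cathepsins and legumain, the cluster relatives, the 3 nearest profiles of each member and, in other lists, called genes or otherwise the 2 with the smallest p. The flanking genes, and the marker genes named, were chosen outside this rule, after values were seen. Mast cell, T cell, endothelial and melanocyte marker lists (6, 5, 6 and 6 genes measured) had no called gene by limma (1 endothelial gene was higher at an unadjusted p under 0.05). Promoters were aligned with Biopython 1.88. No 2 arrays held identical values. The fit was tested on simulated data. Alternatives were a block by replicate number, removal of genes under background on all arrays, averaging over a gene's features, a further quantile normalization, weights per array, eBayes with trend and robust options, and leaving out each array.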

Additional observations from a re-analysis of the deposited data

How the results depend on the processing

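The differences of Stfa1, Stfa2, Stfa3, Cstb and Cst3 kept their direction under every alternative run. With single arrays left out they ranged from -5.25 to -3.88 for Stfa1, -2.69 to -1.53 for Stfa2, -7.31 to -4.32 for Stfa3, -1.28 to -0.52 for Cstb and 0.37 to 0.87 for Cst3. Cst6, under background throughout, ranged from -0.01, without Sfrp1_KO replicate 1, to 0.18, and had no value with dim features left out. No pairing by replicate number is stated. Correlations of deviations from the group means were 0.180, -0.122 and 0.171 for same-numbered arrays and -0.332 to 0.253 for the others. With so few arrays they can neither show nor exclude pairing. With the replicate number as a block, 297 genes rose and 238 fell, against 552 and 437 without it; 2 cystatin relatives fell instead of 4, Csta2 (adjusted p = 0.134) and Cstdc5 (0.0732) losing their calls, and 1 cathepsin rose instead of 2, Ctsl losing its own (0.0980). With array weights or trend and robust options 5 cystatin relatives fell, and Stfa2l1 passed. Among other lysosomal proteases 2 rose, instead of 1, with dim features left out, after quantile normalization and with array weights, Prcp being the second. Among lysosome sorting genes 1, Igf2r, rose after quantile normalization and with array weights, and in the Cst6 route 2 fell with array weights and without dim features, Tgm1 being the second. Leaving out single arrays gave 191 to 487 genes higher and 100 to 407 lower, 1 to 3 cystatin relatives lower, 1 to 2 cathepsins higher and 0 to 1 lower, 0 to 1 other lysosomal proteases and 0 to 1 sorting genes higher, and 0 to 4 genes of the Cst6 route lower. The cause of these changes was not tested. Leaving out an array also lowers the number of samples, and the 2 cannot be told apart here. Of the comparisons of single genes outside the members, 458 kept their side of the threshold, 50 lost a call and 25 gained one. Dim genes are limited by signal over background: no level is known for a gene under it.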
